A study of Mus musculus with 25 samples.

Results

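Adamtsl2 and 8 genes of the latent TGF-beta system were followed across 25 mouse liver RNA sequencing libraries. The 9 genes, of 41388 in the files, were taken from a list of symbols: Adamtsl2, the fibrillin gene Fbn1, the latent TGF-beta binding protein genes Ltbp1, Ltbp2, Ltbp3 and Ltbp4, and the ligand genes Tgfb1, Tgfb2 and Tgfb3. Adamtsl2 was chosen by its own log2 differences between the Western diet groups in these libraries, so those differences are described and not tested. The question put to the other 8 genes was whether they followed Adamtsl2.

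All mice carried loxP-flanked Sirt1 alleles on a C57B/6J background and were aged 20 weeks per the labels. Those labelled LKO also carried Cre driven by the Albumin promoter, which acts in hepatocytes, and those labelled WT were littermates without Cre. Each mouse gave 1 library and had received AAV8, a virus that infects liver, carrying either no insert (empty vector, EV) or NAMPT, the rate-limiting enzyme of NAD+ salvage. On chow there was only a WT EV group (n = 3). On a Western diet (WD) for 12 weeks there were 6 WT mice with EV, 6 WT mice with NAMPT, 5 LKO mice with EV and 5 LKO mice with NAMPT. The labels do not name cage or sequencing batch.

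TGF-beta is secreted in a latent form. Its propeptide holds the ligand inactive, a latent TGF-beta binding protein (LTBP) is usually linked to that propeptide, and the LTBP anchors the complex to fibrillin microfibrils in the extracellular matrix. Integrins, proteases and thrombospondin can release the ligand, which then signals through its receptors to SMAD proteins. ADAMTSL2 is a secreted glycoprotein without a protease domain that binds fibrillin-1 and LTBP1. Mutations of ADAMTSL2, FBN1 or LTBP3 can cause geleophysic dysplasia, a short stature disorder with altered TGF-beta signaling. In liver, hepatic stellate cells and other mesenchymal cells are major sources of microfibril proteins, and TGF-beta drives their production of collagen.

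The libraries held 20166175 to 32937326 counts. Sirt1 was counted at 7.16 to 11.1 CPM (counts scaled to library size) in the 10 libraries labelled LKO and at 7.62 to 10.7 CPM in the 15 labelled WT, so the whole-gene count did not separate the genotypes. That count includes every exon outside the deleted part and the RNA of cells without Cre, so it cannot check the label. Nampt averaged 59.5 ± 10.6 CPM (SD, n = 6) in WT NAMPT against 47.4 ± 6.46 (n = 6) in WD WT EV, and 79.9 ± 28.4 in LKO NAMPT against 56.1 ± 12.0 in LKO EV (n = 5 each). The 4 hepatocyte markers summed to 41500 to 68000 CPM in every library. WT NAMPT replicates 2 and 6 and LKO NAMPT replicate 3 stood apart, with sample weights under 0.5 in the fit, and LKO NAMPT replicate 1 was the highest of its group for 8 of the 9 genes, all but Tgfb2.

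Adamtsl2 (ENSMUSG00000036040) lies on chromosome 2 from 27079379 to 27108981 of GRCm38, on the plus strand, with 18 exon blocks of 7993 bases in all. Promoter sequence from RefSeq (GRCm38.p6) was matched for 6 of the 9 genes. The 250 bases before the transcription start are shown for Adamtsl2, for Tgfb1, the ligand gene that rose with NAMPT in WT mice, and for Ltbp3, which rose there too and is linked to the same human disorder. Capitals mark the letters CAGAC or GTCTG, the SMAD-binding CAGA box on either strand.
Adamtsl2: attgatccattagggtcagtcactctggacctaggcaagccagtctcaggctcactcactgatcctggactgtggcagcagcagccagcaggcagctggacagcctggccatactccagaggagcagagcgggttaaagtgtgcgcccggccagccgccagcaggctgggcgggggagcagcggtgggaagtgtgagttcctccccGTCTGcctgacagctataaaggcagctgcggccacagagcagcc
Ltbp3: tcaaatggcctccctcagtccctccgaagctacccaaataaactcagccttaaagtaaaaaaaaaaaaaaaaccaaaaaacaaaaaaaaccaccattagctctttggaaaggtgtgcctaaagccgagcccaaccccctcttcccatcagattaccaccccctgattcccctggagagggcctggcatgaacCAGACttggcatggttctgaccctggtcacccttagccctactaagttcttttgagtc
Tgfb1: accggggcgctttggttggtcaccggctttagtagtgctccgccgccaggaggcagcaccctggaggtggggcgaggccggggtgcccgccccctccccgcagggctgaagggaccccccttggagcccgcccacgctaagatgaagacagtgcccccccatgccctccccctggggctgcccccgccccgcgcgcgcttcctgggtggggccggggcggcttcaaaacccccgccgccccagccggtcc
These windows lie at chr2:27079129-27079378, chr19:5740650-5740899 and chr7:25686752-25687001, all on the plus strand. The CAGA box letters occurred 1 time before Adamtsl2 and 1 time before Ltbp3, and did not occur before Tgfb1. Of 32851 promoter windows of this length, 42.2% held those letters, so a match is common. The AP-1 letters TGANTCA (6.75% of windows) and the E-box letters CACGTG (6.02%), each read on both strands, were in none of the 3 windows. Fbn1 also rose in WT mice and is linked to the same disorder. Its matched window, not shown, held 0 CAGA boxes, and its RefSeq start lay 1555 bases from the counted start. The windows of Ltbp2 and Tgfb2, also not shown, held 2 CAGA boxes each, and that of Tgfb2 held 1 E-box.

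The 9 genes spanned a wide range of levels. Divided by exonic length, Ltbp4 was the most abundant at 12.5 CPM per kb averaged over the 25 libraries, followed by Tgfb1 at 7.77 CPM per kb. Ltbp3 (0.786), Fbn1 (0.756), Adamtsl2 (0.611), Ltbp1 (0.440), Tgfb3 (0.382), Tgfb2 (0.222) and Ltbp2 (0.116 CPM per kb) were lower. All 9 passed the filter of more than 1 CPM in at least 2 libraries. Tgfb3, Tgfb2 and Ltbp2 exceeded 1 CPM in only 14, 13 and 9 libraries, with as few as 13, 8 and 11 counts in a library. Values for these 3 genes therefore carry more counting error than those of Ltbp4, which had 1005 or more counts in every library.

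**Figure D1:**
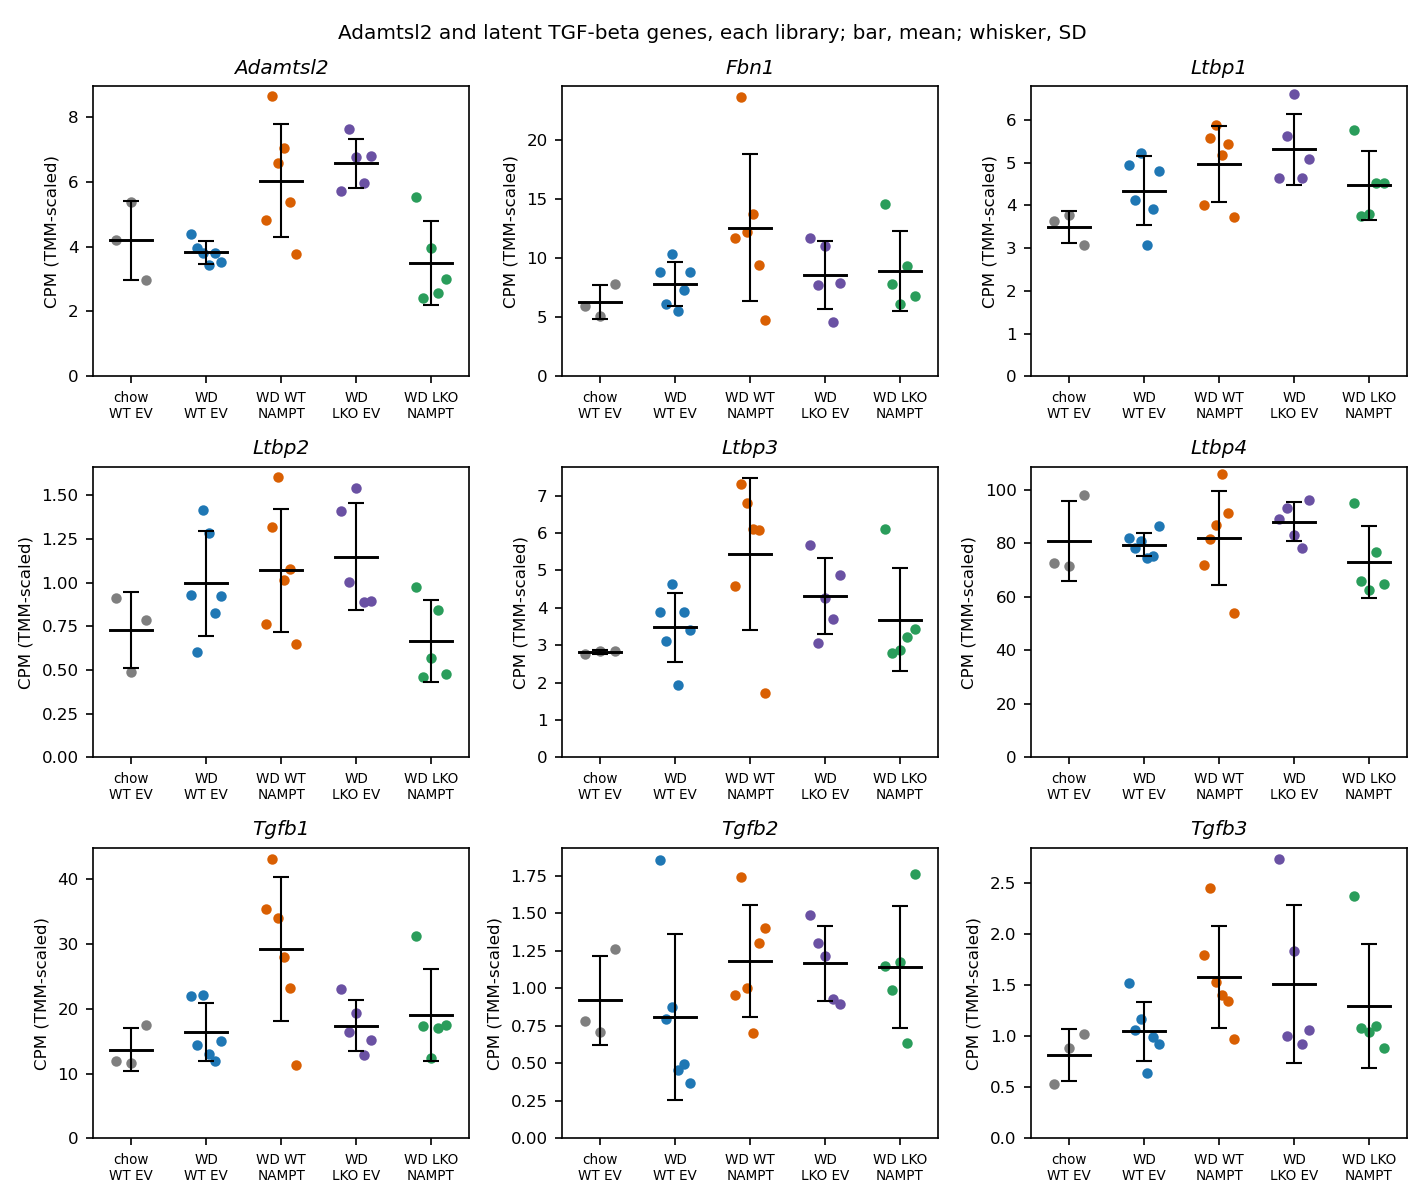
TMM-scaled CPM of the 9 genes in each library (points) by group, with the group mean (bar) and SD (whisker), each panel on its own linear axis from 0. Adamtsl2 is above the WD WT EV range in all 5 LKO EV libraries, whereas Tgfb1 and Fbn1 are highest in WT NAMPT.

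Adamtsl2 was low in WT EV livers, higher when either NAMPT or the LKO genotype was present alone, and low again when both were present. In WD WT EV it ranged from 3.44 to 4.39 CPM with a median of 3.81. In WT NAMPT it ranged from 3.77 to 8.63 CPM with a median of 5.97. The 5 LKO EV libraries held 5.72, 7.62, 6.76, 5.95 and 6.80 CPM, all above every WD WT EV library.

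The 5 LKO NAMPT libraries held 5.51, 2.40, 3.97, 2.58 and 2.99 CPM, all below every LKO EV library, and 1.15% of genes had no overlap there. Adamtsl2 was chosen by such differences, so nothing is read from that share. The chow-fed livers, at 4.22, 5.39 and 2.96 CPM, spanned the whole WD WT EV range. By group mean the order was LKO EV (6.57 ± 0.759), WT NAMPT (6.04 ± 1.74), chow WT EV (4.19 ± 1.21), WD WT EV (3.82 ± 0.343) and LKO NAMPT (3.49 ± 1.28 CPM; SD). The ranges of each neighboring pair in that order overlapped.

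On the log2 scale the fitted Adamtsl2 level differed by 0.72 ± 0.17 (SE) between WT NAMPT and WD WT EV, and by -1.18 ± 0.18 between LKO NAMPT and LKO EV. LKO EV differed from WD WT EV by 0.78 ± 0.16. The NAMPT difference in LKO minus that in WT was -1.90 ± 0.25. These values chose the gene and are given without a test. Adamtsl2 was tested only between WD WT EV and chow WT EV, where the log2 difference was -0.24 ± 0.19 (limma adjusted p = 0.38). The WD WT EV libraries were also part of the differences that chose the gene, so this test is not independent of the choice.

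In WT mice on the Western diet, Tgfb1, Ltbp3 and Fbn1 rose with NAMPT. They were 3 of the 8 other genes, against 13.4% of 14065 genes called in this comparison (limma, Benjamini-Hochberg adjusted p of 0.05 or less) and 7.67% called higher; none of the 8 was called lower, as 5.77% of genes were. All 8 had a positive log2 difference, with a median of 0.50 against 0.00 for all genes tested, of which 50.7% were positive. In none of the 8 were the groups free of overlap; 0.96% of genes were.

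Tgfb1, which encodes the main TGF-beta ligand of injured liver, ranged from 11.9 to 22.2 CPM (median 14.7) in WD WT EV and from 11.4 to 43.2 CPM (median 31.0) in WT NAMPT. The groups overlapped through WT NAMPT replicate 6, at 11.4 CPM, below every WD WT EV library, whereas the other 5 WT NAMPT libraries were above every WD WT EV library. The difference was 1.84-fold (log2 0.88 ± 0.20, adjusted p = 0.0115).

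Ltbp3, an LTBP that binds the TGF-beta propeptide, ranged from 1.92 to 4.64 CPM (median 3.65) in WD WT EV and from 1.72 to 7.31 CPM (median 6.10) in WT NAMPT. Replicate 6 again held the lowest value of both groups. The difference was 1.79-fold (log2 0.84 ± 0.21, adjusted p = 0.0158).

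Fbn1, the structural backbone of the microfibril, ranged from 5.54 to 10.4 CPM (median 8.05) in WD WT EV and from 4.79 to 23.6 CPM (median 12.0) in WT NAMPT. Its highest library, WT NAMPT replicate 2, lay far above the next at 13.7 CPM. The difference was 1.68-fold (log2 0.75 ± 0.23, adjusted p = 0.0355).

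The other 5 genes were not called. Their log2 differences were 0.56 for Tgfb3 (adjusted p = 0.178), 0.45 for Tgfb2 (0.36), 0.39 for Ltbp2 (0.34), 0.31 for Ltbp1 (0.13) and 0.17 for Ltbp4 (0.296). The 3 calls did not hold under every test. Without the 3 libraries of low weight all 3 were still called, but the edgeR quasi-likelihood test, which uses no sample weights, called 0 of 8, with adjusted p-values of 0.0625 for Tgfb1, 0.13 for Ltbp3 and 0.137 for Fbn1. The edgeR exact test and DESeq2, also without sample weights, called Tgfb1 alone (adjusted p = 0.028 and 0.021). The count also fell to 0 without WT NAMPT replicate 3 or WD WT EV replicate 2, and to 1 (Tgfb1) without WD WT EV replicate 6. The calls over all genes moved too, from 1890 to 132, 291 and 628 in that order, and to 428 with the quasi-likelihood test. With 1 library left out, the Fbn1 call was lost in 7 of 12 cases, among them WT NAMPT replicate 2. The Ltbp3 call was lost in 3 of 12 and the Tgfb1 call in 2 of 12.

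Between LKO NAMPT and LKO EV, limma called 0 of the 8 genes. The share of all genes called was 0.00711%; this contrast was among those that chose Adamtsl2, so nothing is read from that share. Of the 8 others, 3 (Ltbp1, Ltbp2 and Ltbp4) had an unadjusted p-value under 0.05, beside 1355 of 14065 genes in limma. Ltbp2, whose product lies on microfibrils but does not bind latent TGF-beta, had 1.41, 1.003, 1.54, 0.889 and 0.896 CPM in LKO EV and 0.977, 0.460, 0.567, 0.846 and 0.475 CPM in LKO NAMPT. Only LKO NAMPT replicate 1 exceeded the lowest LKO EV libraries, and the fit gave a log2 difference of -1.01 ± 0.30 (adjusted p = 0.25). Ltbp4, an LTBP also needed for elastic fibers, had 78.3 to 96.4 and 62.5 to 95.3 CPM, a log2 difference of -0.33 ± 0.11 (adjusted p = 0.325). Ltbp1, the LTBP that ADAMTSL2 binds, had 4.63 to 6.61 and 3.75 to 5.76 CPM, a log2 difference of -0.36 ± 0.14 (adjusted p = 0.407).

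The 3 genes that had risen with NAMPT in WT mice had wide intervals that included 0 here. Tgfb1 was 23.02, 16.4, 19.3, 12.8 and 15.2 CPM in LKO EV and 31.2, 17.3, 12.5, 16.96 and 17.5 CPM in LKO NAMPT. The groups covered much the same range apart from LKO NAMPT replicate 1, with a fitted log2 difference of 0.07 and a 95% interval from -0.36 to 0.49. Fbn1 had a log2 difference of -0.05 (95% interval -0.56 to 0.46) and Ltbp3 of -0.34 (-0.82 to 0.14), close in size to those of Ltbp1 and Ltbp4 but with a larger SE (0.23). Over the 8 genes, 7 log2 differences were negative and the median was -0.33, beside 0.02 for all genes tested. Over all genes, 0 passed with edgeR's quasi-likelihood test, in which 918 had an unadjusted p-value under 0.05, and 6 passed with DESeq2.

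**Figure D2:**
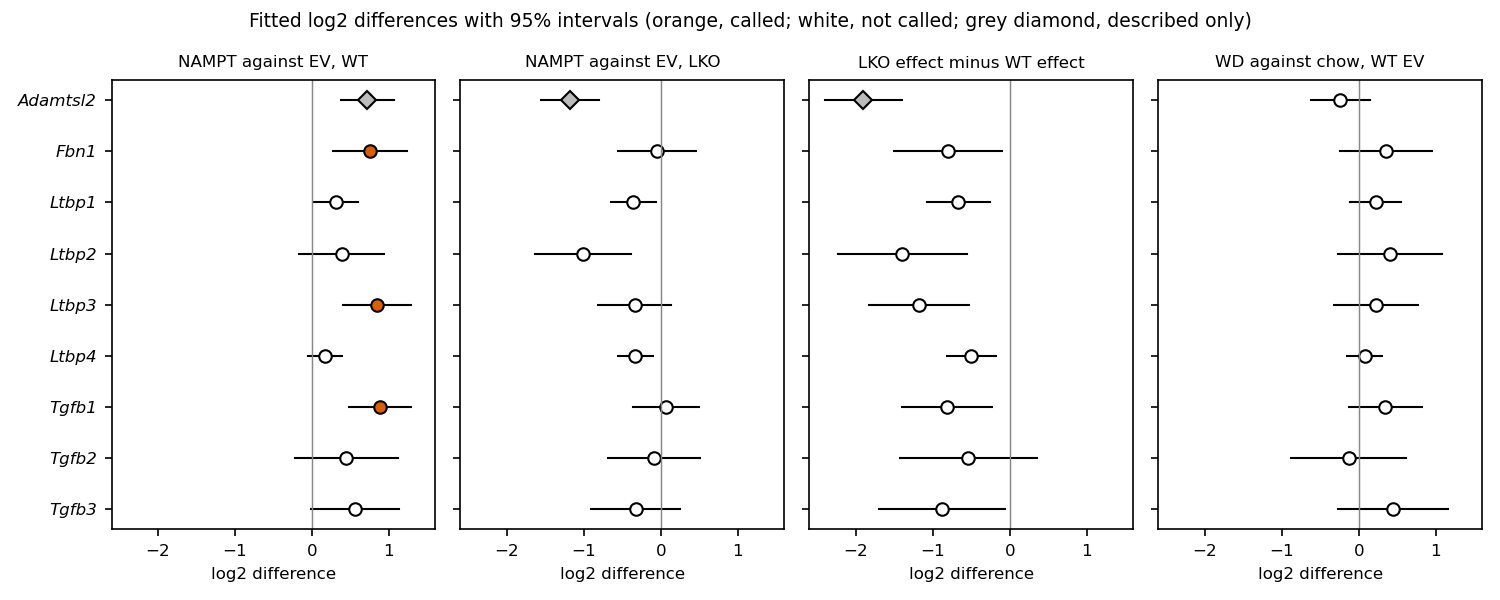
Fitted log2 differences (points) with 95% intervals (lines) of the 9 genes for NAMPT against EV in WT mice, NAMPT against EV in LKO mice, the second minus the first, and WD against chow. Orange points passed the limma threshold, white points did not, and grey diamonds mark Adamtsl2 where it was described only. In the difference panel every point is left of 0, and none of the 8 tested genes passed the threshold there.

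The difference between the 2 NAMPT effects, an interaction term that uses all WD groups, set the other genes beside Adamtsl2 in a contrast that chose it. All 8 interaction values were negative, as was that of Adamtsl2, but none of the 8 was called. The share of all genes called was 0.00711%, and since this contrast too was used to choose Adamtsl2, nothing is read from it. Genes that vary with Adamtsl2 within groups can share its sign through that choice, so the common sign is a description only. The values were -1.39 ± 0.40 for Ltbp2 (adjusted p = 0.0843), -1.18 ± 0.32 for Ltbp3 (0.0748), -0.67 ± 0.20 for Ltbp1 (0.0872) and -0.50 ± 0.15 for Ltbp4 (0.0935). Those of the ligands were -0.88 ± 0.39 for Tgfb3 (0.20), -0.81 ± 0.28 for Tgfb1 (0.117) and -0.54 ± 0.43 for Tgfb2 (0.482), and that of Fbn1 was -0.80 ± 0.34 (0.182).

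Of the 8 genes, 7 had an unadjusted p-value under 0.05, beside 2986 of 14065 genes. The median over the 8 was -0.81, and over all genes tested -0.01, with 48.7% positive. Single libraries set these calls. Without WT NAMPT replicate 6, 5 genes were called (the 4 LTBP genes and Tgfb1), without LKO NAMPT replicate 1 the 4 LTBP genes were, and without WT NAMPT replicate 5 Ltbp3 alone was. Over all genes the count went from 1 to 636, 677 and 366 in that order. The interaction shares libraries with both NAMPT comparisons, as does the comparison of LKO NAMPT with WT NAMPT, so none of these is separate support for another.

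Among mice given NAMPT, Ltbp2, Ltbp3 and Tgfb1 were lower in LKO than in WT, 3 of the 8 genes against 7.96% of genes called and 3.78% called lower (4.18% were called higher). The log2 differences were -0.84 ± 0.22 for Ltbp3 (adjusted p = 0.0269), -0.68 ± 0.20 for Tgfb1 (0.0393) and -1.004 ± 0.31 for Ltbp2 (0.0438). Ltbp3 held 6.11, 2.79, 2.88, 3.21 and 3.43 CPM in LKO NAMPT, and 5 of the 6 WT NAMPT libraries held 4.58 or more, so the ranges overlapped through WT NAMPT replicate 6 and LKO NAMPT replicate 1. None of the 8 was free of overlap, and 1.39% of genes were. Ltbp4 was close to the threshold, at -0.34 ± 0.11 (adjusted p = 0.0582). The corresponding Adamtsl2 difference, described only, was -1.12.

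These 3 calls were also lost with the edgeR quasi-likelihood test, where 0 of 8 were called and the adjusted p-values were 0.256, 0.212 and 0.202. The count was 0 when WT NAMPT replicate 2 or 3 or LKO NAMPT replicate 2, 3 or 5 was left out, and 1 without WT NAMPT replicate 1. It was 5 when WT NAMPT replicate 6 or LKO NAMPT replicate 1 was left out, with Fbn1 and Ltbp4 added. Over all genes, 1120 were called with every library, 45 with the quasi-likelihood test, between 0 (without LKO NAMPT replicate 2) and 200 in the 5 cases with no member called, 640 without WT NAMPT replicate 1, and 2290 and 2266 in the cases with 5.

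With the empty vector, the genotype did not change any of the 8 genes by the limma threshold. Only 0.00711% of genes, 1 of 14065, were called, and this was the protease gene Mmp7, a gene outside the lists that was named after its value was seen. Here 0 genes passed with the quasi-likelihood test of edgeR, 498 had an unadjusted p-value under 0.05 in it, and DESeq2 called 11. All 8 log2 differences were positive, from 0.13 for Tgfb1 to 0.65 for Tgfb2, and 2 had an unadjusted p-value under 0.05 (Ltbp1, 0.36; Tgfb2, 0.65), beside 891 of 14065 genes in limma. The libraries of LKO EV and WD WT EV overlapped for each of the 8, beside 0.59% of genes that had no overlap. Those of Adamtsl2 did not overlap, but that gene was chosen by such differences and is described only.

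The Western diet itself called none of the 9 genes, although 22% of all genes were called between WD WT EV and chow WT EV (10.1% higher and 12.0% lower). None of the 9 was free of overlap, against 16.1% of genes. Fbn1 averaged 7.82 ± 1.84 CPM on the Western diet and 6.31 ± 1.41 on chow (log2 0.35 ± 0.29, adjusted p = 0.404). Tgfb1 averaged 16.4 ± 4.497 and 13.7 ± 3.35 CPM (log2 0.34 ± 0.23, adjusted p = 0.293). The other 6 of the 8 genes lay between -0.13 (Tgfb2) and 0.44 (Tgfb3), with adjusted p-values of 0.333 or more. Of the 8, 0 had an unadjusted p-value under 0.05. Adamtsl2 was at -0.24 (limma adjusted p = 0.38). The chow group held 3 mice, and the 95% interval of Tgfb1 ran from -0.13 to 0.82.

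Within a group, livers with more Adamtsl2 also had more Ltbp1. Each log2(CPM + 0.5) value was taken as its deviation from the group mean, which removes the group differences that chose the gene, and correlated over 25 libraries with a two-sided permutation test within groups. Pearson's r with Adamtsl2 was 0.638 for Ltbp1 (p = 0.00078, adjusted over 8 genes 0.00624) with a Spearman coefficient of 0.625 (p = 0.00172, adjusted 0.0138). It was 0.602 for Ltbp3 (permutation p = 0.00517, adjusted 0.0207) with a Spearman coefficient of 0.492 (p = 0.0184, adjusted 0.0736). For Fbn1 (r = 0.494), Tgfb1 (0.452), Ltbp4 (0.419), Tgfb3 (0.412), Ltbp2 (0.304) and Tgfb2 (0.102) the permutation p-values were 0.0358 to 0.627 and the adjusted ones 0.0955 to 0.627. The Spearman coefficients of these 6 genes ran from -0.012 to 0.292, with raw p-values of 0.184 to 0.957 and adjusted permutation p-values of 0.347 to 0.957.

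These relations changed with the libraries and the scaling. Without LKO NAMPT replicate 1 and WT NAMPT replicate 6, the libraries farthest from the median of Adamtsl2, r was 0.49 for Ltbp1 (permutation p = 0.0135, adjusted 0.108) and 0.333 for Ltbp3 (p = 0.139, adjusted 0.556), and it lay between 0.018 and 0.215 for the other 6. The group means behind these deviations still included the libraries left out. The remaining libraries of those groups thus keep a shared offset, so these values and p-values are not strictly within groups. Within the 6 WT NAMPT libraries r was 0.728 or more for every gene except Tgfb2 (0.019). Within the 6 WD WT EV libraries it ran from -0.369 for Ltbp2 to 0.923 for Tgfb2. In the 19 libraries outside WT NAMPT, r was 0.546 for Ltbp1 and 0.383 for Ltbp3. Over the 22 Western diet libraries alone it ran from 0.217 (Tgfb2) to 0.654 (Ltbp3), higher than over all 25 for every gene except Ltbp1 (0.625), with 0.635 for Ltbp4, 0.623 for Fbn1 and 0.590 for Tgfb1. With scaling by library size alone it was higher for all 8 genes, from 0.254 (Tgfb2) to 0.748 (Ltbp1).

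**Figure D3:**
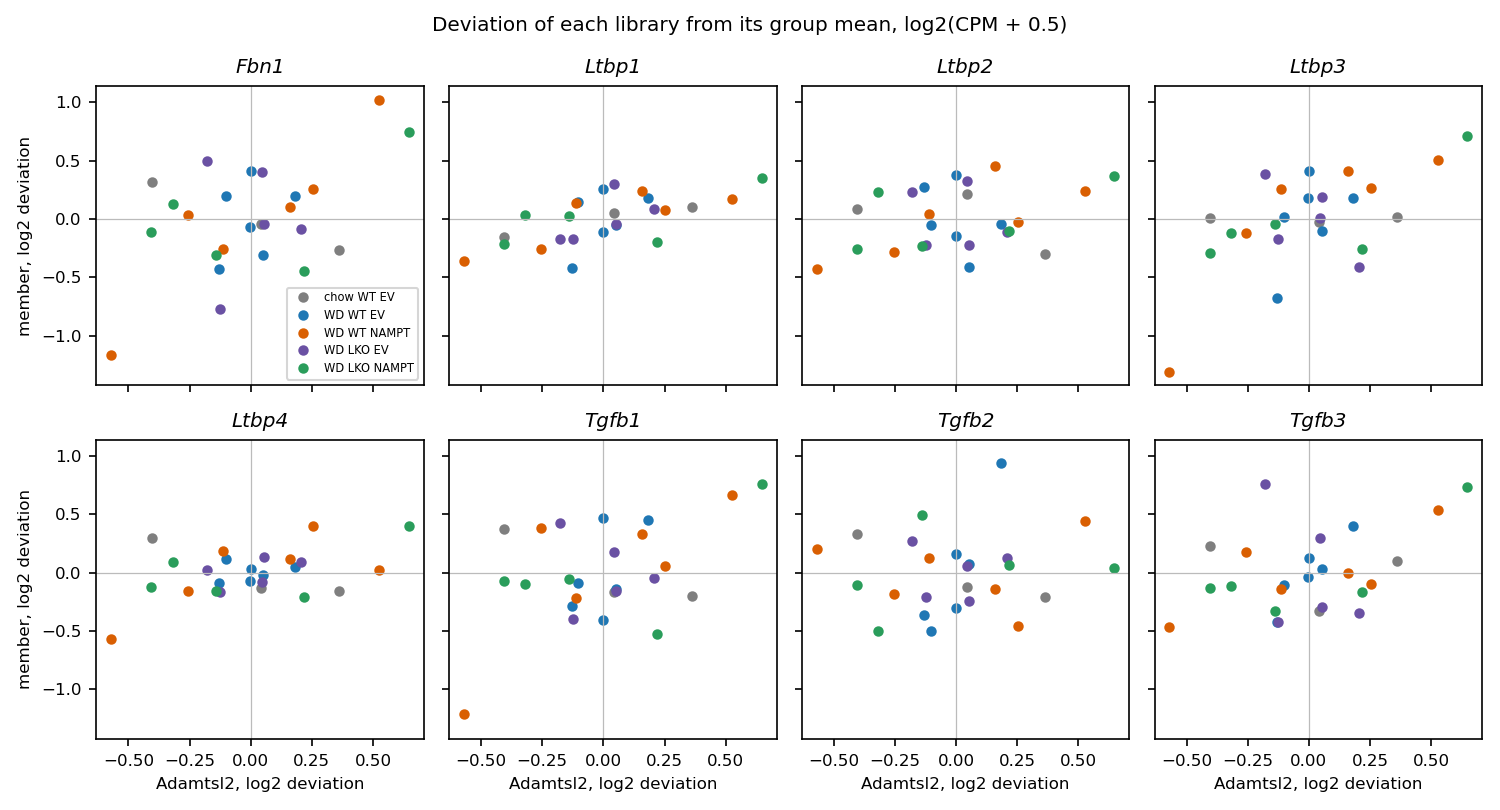
Deviation of each of the 25 libraries from its group mean on the log2(CPM + 0.5) scale, Adamtsl2 on the x axis and one of the other 8 genes on the y axis, colored by group. The WT NAMPT library at the far left (replicate 6) and the LKO NAMPT library at the far right (replicate 1) set much of the slope for Fbn1, Ltbp3, Ltbp4 and Tgfb1.

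The closest pair among the other genes was Fbn1 and Tgfb1, whose deviations correlated with r = 0.897 over the 25 libraries. Fbn1 also moved with Ltbp3 (0.796) and Tgfb3 (0.795), whereas Tgfb2 correlated with no LTBP gene above 0.175. These values share library depth and scaling and are given as a description.

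The genes whose pattern was most like Adamtsl2 across the 22 Western diet libraries were not members of the TGF-beta system. Among 12734 genes with a mean of at least 1 CPM, the highest Pearson r belonged to the pseudogene Ldha-ps2 (0.816), the glycosyltransferase gene B3gnt9 (0.783), Tnfaip8l2 (0.769), a regulator of immune cells, Pear1 (0.769), a receptor of platelets and endothelium, and the ankyrin gene Ank3 (0.757). B3gnt9, for example, averaged 0.943 CPM in WD WT EV, 1.35 in WT NAMPT, 1.41 in LKO EV and 0.787 in LKO NAMPT. Reads of Ldha-ps2 may be split with its parent gene, so its value is uncertain. By the same measure, over 14064 genes, Ltbp1 ranked 48 (r = 0.677), Ltbp3 89 (0.645), Ltbp4 104 (0.639) and Ltbp2 234 (0.590). Tgfb3 ranked 524, Fbn1 760, Tgfb1 803 and Tgfb2 2705. These ranks use the group differences as well as the spread within groups, so they are a description only.

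The wider pathway was read through 6 lists of genes, without a set test. In WT mice on the Western diet, 7.67% of all genes tested were called higher with NAMPT and 5.77% lower. Of 15 latent TGF-beta activators tested, 6 were called higher and 0 lower, with a median log2 difference of 0.34 against 0.00 for all genes. They included the matrix metalloproteinase genes Mmp2 (log2 0.91, adjusted p = 0.0121) and Mmp9 (1.20, 0.0185), the urokinase gene Plau (0.99, 0.0157) and Nrros (0.77, 0.0164), which anchors latent TGF-beta on macrophages.

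Of 15 TGF-beta target genes, 6 were called higher and 0 lower, beside 7.67% and 5.77% of all genes. Their median was 0.55, and all 15 had a positive log2 difference. Tgfbi, a secreted matrix protein, had a log2 difference of 0.49 (adjusted p = 0.0152). The fibrillar collagen genes Col3a1 (log2 1.18, adjusted p = 0.0233) and Col1a2 (1.17, 0.0233) were also called.

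Of 11 fibrillin microfibril partners tested, 2 were called higher, beside the same 7.67% of all genes: Efemp2 (log2 0.60, adjusted p = 0.0259), an elastic fiber fibulin, and the crosslinking enzyme gene Loxl1 (1.17, 0.0258). Of 7 ADAMTS-like and microfibril ADAMTS genes, Adamtsl1 (1.63, adjusted p = 0.0242) and Adamts10 (0.42, 0.0423) were called higher. Of 6 receptor genes, 1 was called, Bambi (0.57, adjusted p = 0.0184), a pseudoreceptor that dampens TGF-beta signaling. None of 12 SMAD genes and regulators was called by limma, at an unadjusted p-value under 0.05 or by the edgeR quasi-likelihood test.

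As with the members, these counts depended on the libraries. Over all genes 1890 were called, 428 with the quasi-likelihood test, 132 when WT NAMPT replicate 3 was left out and 741 when replicate 2 was. With the quasi-likelihood test 1 gene of the 6 lists, Bambi, was called. Without WT NAMPT replicate 3 none was. Without WT NAMPT replicate 2 the target gene count fell from 6 to 1, the microfibril count from 2 to 0 and the activator count from 6 to 4. Without the 3 libraries of low weight the counts were 6 activators and 7 targets.

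In LKO mice NAMPT called no gene of the 6 lists in limma. Unadjusted p-values under 0.05 were reached by 1 of 11 microfibril partners, 2 of 7 ADAMTS-like genes, 2 of 15 activators, 0 of 6 receptors, 2 of 12 SMAD genes and 2 of 15 targets, beside 1355 of all 14065 genes. All 11 microfibril partners tested and all 7 ADAMTS-like genes had a negative log2 difference, with medians of -0.30 and -0.46, whereas the median of the targets was -0.02. Among mice given NAMPT, Efemp2 (log2 -0.70, adjusted p = 0.0262), Adamts10 (-0.64, 0.0196) and Bambi (-0.58, 0.0275) were lower in LKO than in WT, 3 genes in all, beside 3.78% of all genes called lower, and the quasi-likelihood test called none of the 3. That count is near the background and is not a result about the lists. In the interaction and between LKO EV and WD WT EV no list gene was called by limma, and the quasi-likelihood test called no gene at all in either. Unadjusted limma p-values under 0.05 were reached in the interaction by 7 of 11 microfibril partners, 3 of 7 ADAMTS-like genes, 7 of 15 activators, 1 of 6 receptors, 1 of 12 SMAD genes and 6 of 15 targets, beside 2986 of all 14065 genes. For the genotype with EV the counts were 2, 1, 3, 0, 0 and 1 in that order, beside 891 of 14065.

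The Western diet called 5 of 15 target genes higher than on chow, while no member was called. Of all genes, 10.1% were called higher and 12.0% lower in this comparison, and the quasi-likelihood test called 3 of the 15 target genes higher. Among them were Bhlhe40, a transcriptional repressor (log2 1.26, adjusted p = 0.000319), Postn, a matricellular protein (1.07, 0.00156), and Tgfbi (0.47, 0.0115). Bambi was lower (-0.57, adjusted p = 0.013). Of 15 activators, 1 was called higher and 1 lower, and no microfibril partner, ADAMTS-like or SMAD list gene was called. Some cell type markers differed with the diet as well. The 4 activated myofibroblast markers, all of them also target genes, summed to 15.2 to 20.5 CPM on chow and to 24 to 71.3 CPM in WD WT EV, and the 5 Kupffer cell markers to 176 to 218 and 230 to 338 CPM, so neither sum overlapped. Of all single genes, 16.1% had no overlap in this comparison, so its absence was common. Called higher were 1 of 4 myofibroblast markers (Postn), 1 of 5 Kupffer (Cd5l, 1.06), 1 of 8 stellate (Lrat, 0.54) and 1 of 5 sinusoidal endothelial markers (Lyve1, 1.13), and the endothelial marker Kdr was called lower (-0.20). No marker of the other lists was called. These counts are near the 10.1% and 12.0% of all genes and are not a result about the markers. The part of cell composition in the diet differences was not tested.

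**Figure D4:**
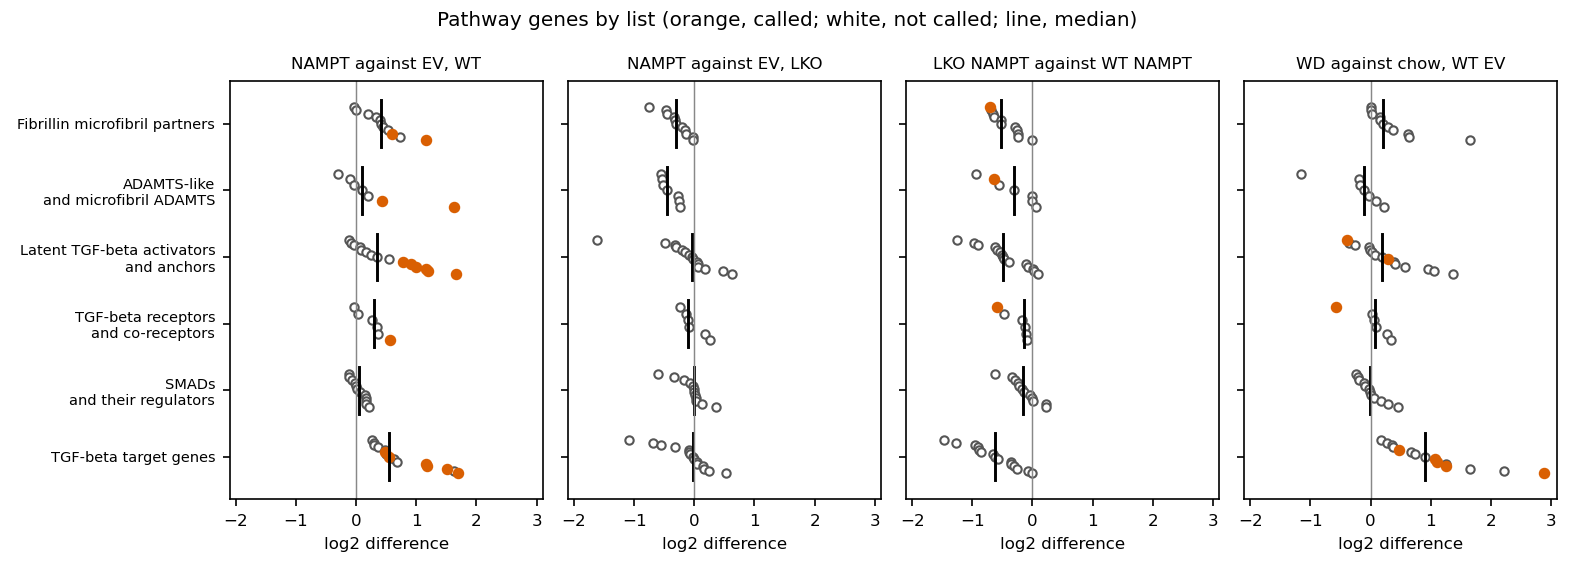
Log2 differences of each tested gene (points) in the 6 pathway lists for 4 comparisons, with the list median as a vertical line. Orange points passed the limma threshold. They lie right of 0 in the WT NAMPT panel and are missing from the LKO NAMPT panel.

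In bulk tissue, fewer cells of a type and less RNA per cell cannot be told apart, and marker genes of non-parenchymal cells moved with the NAMPT comparison in WT mice. Of 8 hepatic stellate cell markers, 3 were called higher, beside 7.67% of all genes (Des, 0.66; Pdgfrb, 0.57; Rgs5, 0.49), and the list summed to 243 to 296 CPM in WD WT EV and 234 to 348 CPM in WT NAMPT. Of 5 Kupffer cell markers, Adgre1 (0.91) and Cd5l (0.91) were called higher, and their sum was 230 to 338 against 216 to 593 CPM. Of 4 activated myofibroblast markers, the collagen gene Col1a1 was called (1.70), at 17.2 ± 12.7 CPM in WD WT EV and 50.7 ± 39.2 in WT NAMPT, and the sum was 24 to 71.3 against 17.3 to 164 CPM. All 4 myofibroblast markers are also in the target gene list, so the 2 counts share genes.

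Of 3 neutrophil markers tested, S100a9 was called higher (1.57), with sums over the list of 1.16 to 5.32 against 1.35 to 14.8 CPM. Of 5 sinusoidal endothelial markers, Pecam1 was called higher (0.36) and Clec4g lower (-0.40), and 4 had an unadjusted limma p-value under 0.05. Of 2 T cell markers tested, 0 were called, both had an unadjusted p-value under 0.05, and their median log2 difference was 1.15. The neutrophil marker Ly6g was at 0 in every WD WT EV library. Of 5 portal fibroblast markers tested, of a list that shares 3 genes (Eln, Fbln2 and Mfap4) with the microfibril partners, 0 were called, with sums of 5.02 to 14.4 against 5.28 to 15.5 CPM, and of 4 hepatocyte markers 0 were called, with 2 and 1 at an unadjusted limma p-value under 0.05. WT NAMPT replicate 6, lowest for Tgfb1, Ltbp3 and Fbn1, also had the lowest Kupffer, stellate and myofibroblast sums of its group (216, 234 and 17.3 CPM). WT NAMPT replicate 2, highest for the same 3 genes, had the highest myofibroblast (164), portal fibroblast (15.5), neutrophil (14.8) and cholangiocyte (23.1 CPM) sums of its group. Its sums for the other lists, Kupffer (499) and stellate (336 CPM) among them, were not the highest of its group.

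In LKO mice limma called no marker between NAMPT and EV, although 3 of 4 cholangiocyte markers, 1 of 8 stellate, 1 of 4 myofibroblast and 1 of 4 hepatocyte markers had an unadjusted p-value under 0.05, beside 1355 of 14065 genes. The stellate markers summed to 267 to 289 CPM in LKO EV and to 251 to 345 CPM in LKO NAMPT, and the Kupffer markers to 250 to 302 and 226 to 457 CPM. The highest value of both sums in LKO NAMPT belonged to replicate 1, the library highest for Tgfb1, Fbn1 and Ltbp3.

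Markers also differed between LKO NAMPT and WT NAMPT, where 3.78% of all genes were called lower and 4023 of 14065 had an unadjusted p-value under 0.05. All 8 stellate markers had a negative log2 difference (median -0.27), with Pdgfrb called lower (-0.61, adjusted p = 0.0199) and 4 at an unadjusted p-value under 0.05. All 5 Kupffer markers were negative too (median -0.51), with 0 called and 3 at an unadjusted limma p-value under 0.05. Of 4 cholangiocyte markers, all negative (median -0.88), Sox9 was called lower (-1.445, adjusted p = 0.0282). The neutrophil, T cell, portal fibroblast and myofibroblast lists had medians of -1.06, -1.09, -0.55 and -0.41, with 0 called and 2, 1, 1 and 1 at an unadjusted limma p-value under 0.05, and the sinusoidal endothelial and hepatocyte lists had medians of 0.10 and 0.13, with 0 called and 1 and 0 at that level. The ranges of the Kupffer and stellate sums overlapped between these groups. The part of cell composition in the member differences was not tested.

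**Figure D5:**
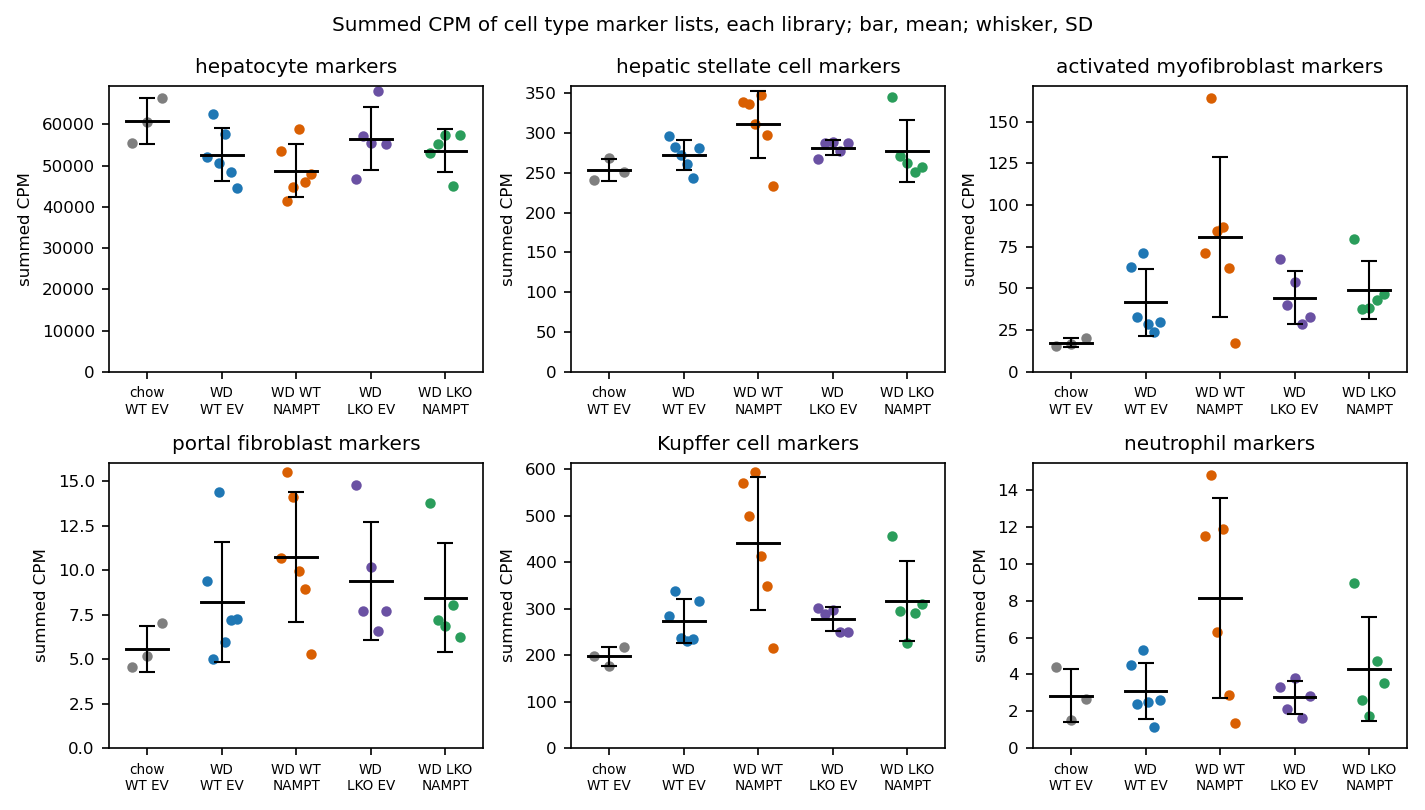
Summed TMM-scaled CPM of 6 cell type marker lists in each library (points) by group, with mean (bar) and SD (whisker), each panel on its own linear axis from 0. Kupffer, neutrophil and myofibroblast sums are highest and most spread in WT NAMPT, where 1 library (replicate 6) lies below the rest.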

How the data were processed

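Poly-A selected RNA from 25 mouse livers was sequenced with single-end reads. The authors aligned them to GRCm38 with STAR (2.5.1a in the submitters' processing notes), counted uniquely mapped reads per Ensembl gene with featureCounts (1.4.6-p5), and deposited raw counts with CPM and RPKM values computed from them. The deposited CPM and RPKM were recomputed from the counts and agreed to rounding, so only counts were used. Strand use in counting was not given in the sources used here. Exons of Fbn1, Ltbp2, Ltbp3 and Tgfb2 share 2442, 764, 106 and 127 bases with genes on the other strand, so their reads cannot be told apart there.

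Groups came from the sample titles; the labels' treatment text names SIRT1 as the insert where the titles name NAMPT. Genes with more than 1 CPM in at least 2 libraries were kept and 4 ribosomal RNA genes removed, leaving 14065. Counts were scaled by TMM (edgeR 4.0.16) and fitted with voomWithQualityWeights (limma 3.58.1, R 4.3.3) over all 25 libraries, 1 mean per group, with Benjamini-Hochberg adjustment over all genes kept and calls at 0.05 or less, as in the study's methods. CPM values are TMM-scaled, with SD; differences carry the SE of the fit. A pseudocount of 0.5 was used for correlations, with 100000 resamples. Libraries of a group differed by more than sampling noise. Each replicate was 1 mouse.

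Alternatives were the edgeR quasi-likelihood and exact tests, DESeq2 (1.42.0), unweighted voom, other scalings, no filter, a replicate block and leaving out each library. Leaving out the 3 libraries of low weight, or the WT NAMPT libraries from the correlations, was added after seeing the data. The members and gene lists were chosen with earlier results of these data known. The text names all 9 members, at most 4 called genes per list and comparison by adjusted p-value, and the 5 genes most correlated with Adamtsl2. Results of 1 listed gene are not reported here by name.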

Additional observations from a re-analysis of the deposited data

Results flagged for a closer look

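In 36 groups of 5 or 6 libraries, the highest and lowest library of each gene were compared with the rest by Dixon's test, which flags about 1 group in 20 by chance, and 4 were flagged. LKO NAMPT replicate 1 stood apart above its group for Ltbp3, at 6.11 CPM with the next library at 3.43, for Tgfb1, at 31.2 CPM with the next at 17.5, and for Tgfb3, at 2.37 CPM with the next at 1.10. The same library had the highest Kupffer and stellate marker sums of its group, 457 and 345 CPM, and the part of these cells in its values was not tested. WD WT EV replicate 1 stood apart for Tgfb2, at 1.86 CPM with the next library at 0.879.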

How the results depend on the processing

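The sign of Adamtsl2 was kept under every alternative in the 5 comparisons among Western diet groups, with interaction values from -2.02 to -1.58 across methods. The gene was chosen by those differences, so a stable sign is no support for them. The calls of the other genes were not stable, and the cause was not tested. Of the 8 genes, the number called for NAMPT in WT mice went from 3 to 0 (quasi-likelihood test, no sample weights, replicate block) or 1 (exact test, DESeq2, no filter), to 4 with library size alone (Ltbp1 added), and to 0 to 3 when 1 library was left out. In LKO NAMPT against WT NAMPT it went from 3 to 0 (quasi-likelihood and exact tests, DESeq2, no weights, no filter, only the groups compared) or 1 (replicate block), to 4 with upper-quartile factors or library size alone (Ltbp4 added), and to 0 to 5 with 1 library left out; the interaction count was 0 to 5. With the replicate block, 1 gene (Tgfb1) was called for the diet. Same-numbered libraries correlated at -0.188 to 0.348 in WT mice and at -0.327 to 0.368 over all group comparisons, so the numbers were not taken as pairs. The block turned the log2 difference of Ltbp2 (-0.002) and Tgfb2 (-0.044) for NAMPT in WT mice, of Tgfb1 (-0.194) and Tgfb2 (-0.024) for LKO EV against WD WT EV, of Tgfb2 (-0.069) for LKO NAMPT against WT NAMPT and of Tgfb2 (0.633) for the diet. Under the quasi-likelihood test, exact test, DESeq2 and unweighted voom, values near 0 changed sign: Fbn1 for NAMPT in LKO (0.053, 0.054, 0.051, 0.046, and 0.023 without a filter), Tgfb2 for LKO NAMPT against WT NAMPT (-0.052, -0.052, -0.061, -0.079) and Ltbp4 for the diet (-0.023, -0.023, -0.018, -0.008). With 1 library left out, signs turned for NAMPT in LKO in Fbn1 (-0.235 to 0.130), Tgfb1 (-0.033 to 0.161) and Tgfb2 (-0.330 to 0.038), for LKO NAMPT against WT NAMPT in Tgfb2 (-0.127 to 0.242), and for the diet in Adamtsl2 (-0.300 to 0.127), Ltbp4 (-0.094 to 0.132) and Tgfb2 (-0.451 to 0.029).

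Scaling moved the balance of calls over all genes. For NAMPT in WT mice it was 1079 higher and 811 lower with TMM, 1214 and 594 with upper-quartile factors, and 2010 and 271 with library size alone, where the median of all genes was 0.156 against 0.004 with TMM. Between LKO NAMPT and WT NAMPT, in the same order, it was 588 and 532, 345 and 713, and 204 and 636, with a median of -0.119 for library size alone against -0.005 with TMM. For the diet, library size alone gave 1053 higher and 2175 lower, against 1414 and 1687. All genes called ranged across methods from 192 to 2281 (main 1890) for NAMPT in WT mice, 13 to 1058 (1120) for LKO NAMPT against WT NAMPT, 1201 to 3842 (3101) for the diet, 0 to 6 (1) for NAMPT in LKO, 0 to 11 (1) for genotype with EV and 0 to 66 (1) for the interaction, which rose to 677 without LKO NAMPT replicate 1. With 1 library left out, all genes called ranged from 132 to 2844 for NAMPT in WT mice, 0 to 2290 for LKO NAMPT against WT NAMPT and 834 to 3175 for the diet. The exact test gives no interaction.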
